A study of Mus musculus with 50 samples.

Results

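The comparison described here asks how far a low dose of GenX changed fetal liver differently from the liver of exposed dams. GenX is the trade name of hexafluoropropylene oxide dimer acid, a short fluorinated ether acid that replaced perfluorooctanoic acid (PFOA). Pregnant CD-1 mice, an outbred stock, were gavaged daily, and livers were taken on gestational day 17.5. Of the 50 arrays of the series, 20 enter the comparison, as 4 groups of 5: fetal liver of dams given GenX at 2 mg/kg/day (called fetal GenX2), fetal liver of vehicle-treated dams (fetal control), liver of dams given GenX at 2 mg/kg/day (maternal GenX2) and liver of vehicle-treated dams (maternal control). No group carries an engineered allele. The measure of interest is a difference of differences on the log2 scale: fetal GenX2 minus fetal control, less maternal GenX2 minus maternal control. A positive value means that the fetal change was the more positive of the pair. All 30743 genes that a probe named alone were tested, each by its brightest probe, and none was preselected.

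GenX and PFOA are known ligands of the nuclear receptor PPARα, which in rodent liver partners with RXR on DNA and switches on the uptake, activation and oxidation of fatty acids in peroxisomes, mitochondria and microsomes. Fetal liver late in gestation is still a site of blood formation, and its hepatocytes have yet to acquire much of the adult programme of bile acid, amino acid and drug metabolism.

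A gene was taken as above background in a tissue when its signal exceeded the array's 95th percentile of negative control probes on average over that tissue's 10 arrays. The percentile lay between 7.46 and 7.94 on the log2 scale. The average takes in exposed and control arrays together, so a gene can pass the rule through the group where it is high. By this rule 4601 genes were above background in both livers, 757 in fetal liver only, 1703 in maternal liver only and 23682 in neither. Between 4789 and 7014 genes per array exceeded their own array's percentile. Albumin (Alb), a defining transcript of hepatocytes, averaged 13.29 ± 0.04 in fetal GenX2 and 13.31 ± 0.06 in fetal control, against 13.41 ± 0.10 in maternal GenX2 and 13.45 ± 0.04 in maternal control (SD, n = 5 each). Alpha-fetoprotein (Afp), the fetal serum protein, was at 12.93 and 12.98 in the fetal groups and below background in both maternal groups. Per the labels' protocols the maternal and fetal samples were matched, but no label says which dam and fetus belong together, and the fits treat them as independent. Several arrays need a remark. The fetuses are labelled female, yet 2 fetal arrays, fetal GenX2 replicate 2 and fetal control replicate 3, had Y-linked Eif2s3y at 6.10 and 6.49 and the X-inactivation transcript Xist at 4.50 and 5.39, where the other fetal arrays of the 2 groups had Eif2s3y at most 3.77. A conflict of labels touches fetal GenX2 replicate 5, whose title gives the low dose and whose source name gives the high dose of GenX; the title was followed. Values without these arrays stand beside the results. Precision is bounded by 5 arrays a group.

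A difference in response between the tissues was called for a small share of genes. Without adjustment, 2795 genes had p under 0.05 for the difference (limma). Genes that missed the call are not thereby shown to respond alike. Of the 30743 genes, 393 (1.28%) were called for the difference of effects (limma, Benjamini-Hochberg adjusted p under 0.05), of which 188 (0.612%) were positive and 205 (0.667%) negative. Within fetal liver, 1200 genes (3.9%) rose and 870 (2.83%) fell. Within maternal liver, 748 genes (2.43%) rose and 288 (0.937%) fell. After median centring of the arrays the splits became 1704 higher and 615 lower in fetal liver, and 966 higher and 164 lower in maternal liver. After repeated quantile normalization they were 975 higher and 869 lower in fetal liver, and 719 higher and 295 lower in maternal liver. Among the 4601 genes above background in both livers, the fetal split was 678 higher and 346 lower. It became 413 higher and 437 lower after repeated quantile normalization, so the excess of fetal rises depends on the normalization. Single arrays weighed on the counts. With the 2 arrays of male pattern left out, 268 genes were called for the difference, and 366 with the arrays of conflicting labels left out. A total of 1310 genes were called in fetal liver without fetal GenX2 replicate 4, and 2433 in maternal liver without maternal GenX2 replicate 4.

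Genes called within both tissues numbered 346, of which 339 moved the same way and 7 moved in opposite directions. A further 1724 were called in fetal liver only, but for 1517 of these the difference between tissues did not pass. Likewise, 569 of the 690 genes called in maternal liver only did not pass for the difference. The 393 genes that did pass fell into a few patterns. Fetal-only rises made up 105 and fetal-only falls 102, while maternal-only rises made up 72 and maternal-only falls 49. Genes that moved the same way in both by unequal amounts numbered 31, and 27 were called in neither tissue alone. By level, 97 of the 393 were above background in both livers, 2.11% of the 4601 such genes. Another 31 were above background in fetal liver only and 86 in maternal liver only. The remaining 179 were above background in neither, and are described by counts only because a difference between signals near background has no clear size. The plot of fetal against maternal effects shows these groups.

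**Figure D1:**
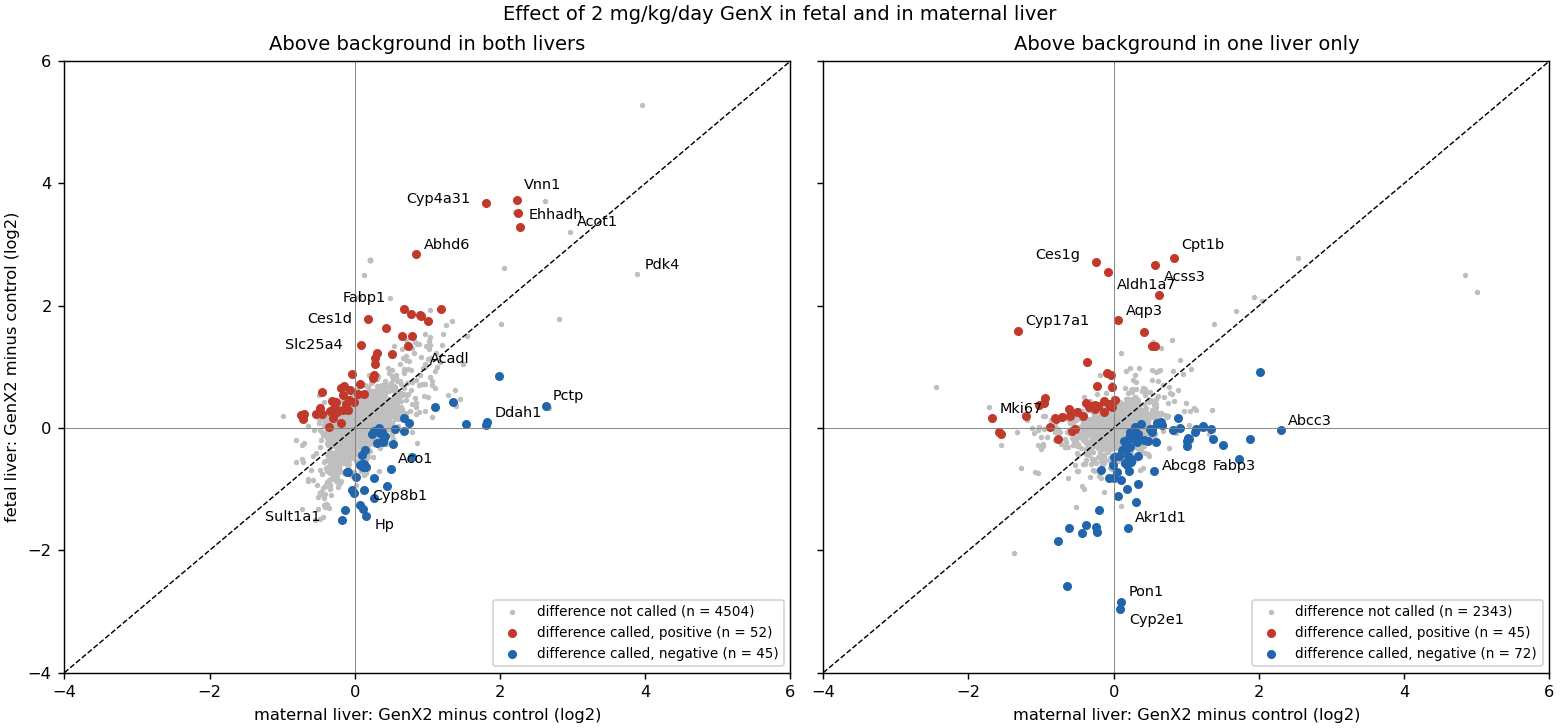
Effect of GenX at 2 mg/kg/day (GenX2 minus control, log2) in fetal liver (vertical axis) against maternal liver (horizontal axis), each point a gene, for genes above background in both livers (left) and in one of them (right); the dashed line marks equal effects. Red points lie above the line (difference called, positive, 52 and 45 genes) and blue points below it (negative, 45 and 72 genes), while Acadl sits close to it.

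Among genes above background in both livers, 1 pattern was a rise in both with the larger rise in the fetus. Abhd6, a lipase that cleaves monoacylglycerols, had the largest positive difference, 1.99 ± 0.20 (SE). Its log2 signal was 9.83, 10.07, 9.96, 10.08 and 10.49 on the fetal GenX2 arrays, against 7.46, 7.22, 7.04, 7.31 and 7.2 on the fetal control arrays. In maternal liver it was 10.39, 9.85, 9.71, 9.56 and 9.81 on the GenX2 arrays, against 9.01, 8.88, 9.1, 9.27 and 8.84 on the control arrays. The groups did not overlap in either tissue, and all 5 fetal control arrays were below background, so that the fetal rise was at least 4.57-fold, beside 1.8-fold in the dam (adjusted p of the difference 1.2e-08).

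Fabp1, the liver fatty acid binding protein, carries long-chain fatty acids through the cytosol. It stood at 12.39, 12.31, 12.43, 12.24 and 12.34 in fetal GenX2 and 9.82, 10.22, 10.24, 10.85 and 10.88 in fetal control. The maternal signals were 12.62, 12.64, 12.59, 12.39 and 12.55 under GenX2 and 11.87, 11.86, 11.8, 11.8 and 12.04 in control. The fetal minus maternal gap was -0.21 under GenX2 and -1.47 in controls. The rise was 3.84-fold in the fetus and 1.6-fold in the dam, a difference of 1.26 ± 0.17 (adjusted p = 6.43e-06). Ehhadh, the peroxisomal bifunctional enzyme of β-oxidation, behaved alike, with 12.54, 12.5, 12.6, 12.49 and 12.65 in fetal GenX2 and 8.59, 9.07, 9.37, 9.47 and 8.72 in fetal control. Its maternal values were 12.95, 12.7, 12.78, 12.55 and 12.61 under GenX2 and 10.4, 10.59, 10.36, 10.55 and 10.47 in control, and the difference was 1.27 ± 0.25 (adjusted p = 0.00224).

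PPARα binds direct repeats of a hexamer spaced by a single base. A promoter window was searched for the letters AGGNCANAGGNCA on both strands, from 250 bases before to 50 after the start of each gene in RefSeq (GRCm38.p6). The repeat was present in 122 of 27025 genes with a window (0.451%). Of the 52 genes above background in both livers with a positive difference, 37 had a window and 1 held the repeat, Fabp1. Among the 45 with a negative difference, 33 had a window and 1 held it, Cyp2d10, named for this match. The single hexamer AGGTCA was present in 18.1% of all windows, in 10 of the 37 and in 8 of the 33. Windows are printed for Fabp1, whose rise was larger in the fetus, and for Pctp, whose rise was seen in the dam. Capitals mark the repeat in Fabp1 (bases -67 to -55 counted from the start, read on the reverse strand) and the single hexamer in Pctp, which lies after the start. The match is a description of letters, and no binding was measured.
Fabp1, chr6:71199629-71199928, plus strand: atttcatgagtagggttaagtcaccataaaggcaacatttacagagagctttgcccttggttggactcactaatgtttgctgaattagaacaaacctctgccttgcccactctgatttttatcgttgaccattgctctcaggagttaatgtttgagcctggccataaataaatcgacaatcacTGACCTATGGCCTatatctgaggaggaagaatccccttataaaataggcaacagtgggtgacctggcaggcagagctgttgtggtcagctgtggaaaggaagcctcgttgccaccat
Pctp, chr11:90002845-90003144, minus strand: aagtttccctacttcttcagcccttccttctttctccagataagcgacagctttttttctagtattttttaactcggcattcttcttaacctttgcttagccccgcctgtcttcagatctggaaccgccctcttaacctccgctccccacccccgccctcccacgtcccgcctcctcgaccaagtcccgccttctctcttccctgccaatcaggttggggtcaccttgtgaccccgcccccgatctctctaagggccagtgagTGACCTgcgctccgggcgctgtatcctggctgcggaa

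Other enzymes and carriers of fatty acid oxidation followed. Cyp4a31, a fatty acid ω-hydroxylase, rose by 3.68 in fetal and 1.801 in maternal liver, a difference of 1.88 ± 0.40 (adjusted p = 0.0055). Fetal control arrays were above background on 1 of 5 for Cyp4a31, Vnn1 and Ephx1, so their fetal rises are measured from signals near background. Vnn1, a pantetheinase released from hepatocytes, rose by 3.73 and 2.23 in the same order, and its difference of 1.50 lost its call in 10 of the 20 fits that left out 1 array (adjusted p up to 0.0874 over all alternatives). Abcd3, which brings fatty acyl chains into peroxisomes, rose by 1.84 in fetal and 0.90 in maternal liver. For Crot, which hands chain-shortened acyl groups to carnitine, the rises were 1.50 and 0.66. Cpt2, at the inner mitochondrial membrane, rose by 1.75 in the fetus and 1.01 in the dam. Very long-chain acyl-CoA dehydrogenase (Acadvl) gave 1.22 and 0.52. These 4 differences ran from 0.70 to 0.94, with adjusted p between 7.84e-05 and 0.00471 (limma). Angptl4, a secreted inhibitor of lipoprotein lipase, rose at least 2.2-fold in the fetus, with all 5 control arrays below background, and 1.89-fold in the dam. Its call for the difference (adjusted p = 0.0213) was lost without fetal GenX2 replicate 5 (the array of conflicting labels) or maternal control replicate 4, with adjusted p up to 0.0532. Mttp, which loads lipid onto apolipoprotein B, rose by 1.04 in the fetus and 0.28 in the dam. Ephx1, microsomal epoxide hydrolase, rose by 1.86 and 0.78, a difference of 1.08 with an adjusted p of 0.0215 that became 0.0516 without the 2 arrays of male pattern and missed without those same single arrays, at up to 0.0627. Across Abhd6, Fabp1, Ehhadh, Cyp4a31 and Abcd3, Crot, Cpt2, Acadvl, Angptl4 and Mttp, differences ran from 0.72 to 1.96 without the 2 arrays of male pattern and from 0.67 to 1.89 without the arrays of conflicting labels.

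In all, 19 genes above background in both livers rose in both and were called for the difference, 17 of them with the larger rise in the fetus. All 17 had a lower level in fetal than in maternal control liver, and in 16 the gap was narrower under GenX2. Their median gap, fetal minus maternal, was -0.21 under GenX2 and -1.10 in controls. Some of the 17, Abhd6 and Angptl4 included, had every fetal control array below background, so their gap in controls has no clear size. Under GenX2, Ehhadh reached 12.65 in fetal and 12.95 in maternal liver, and Fabp1 reached 12.43 and 12.64. Whether rises to signals this high are read in full was not tested. For comparison, 1800 of the 4601 genes above background in both livers were lower in fetal control liver, and 1908 had a narrower gap under GenX2. Since the difference of effects is the gap under GenX2 less the gap in controls, these counts restate the call in levels and are no separate test. The other two, with the larger maternal rise, were Pltp, the phospholipid transfer protein of plasma, and Slc38a4, an amino acid carrier, named after their values were seen.

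**Figure D2:**
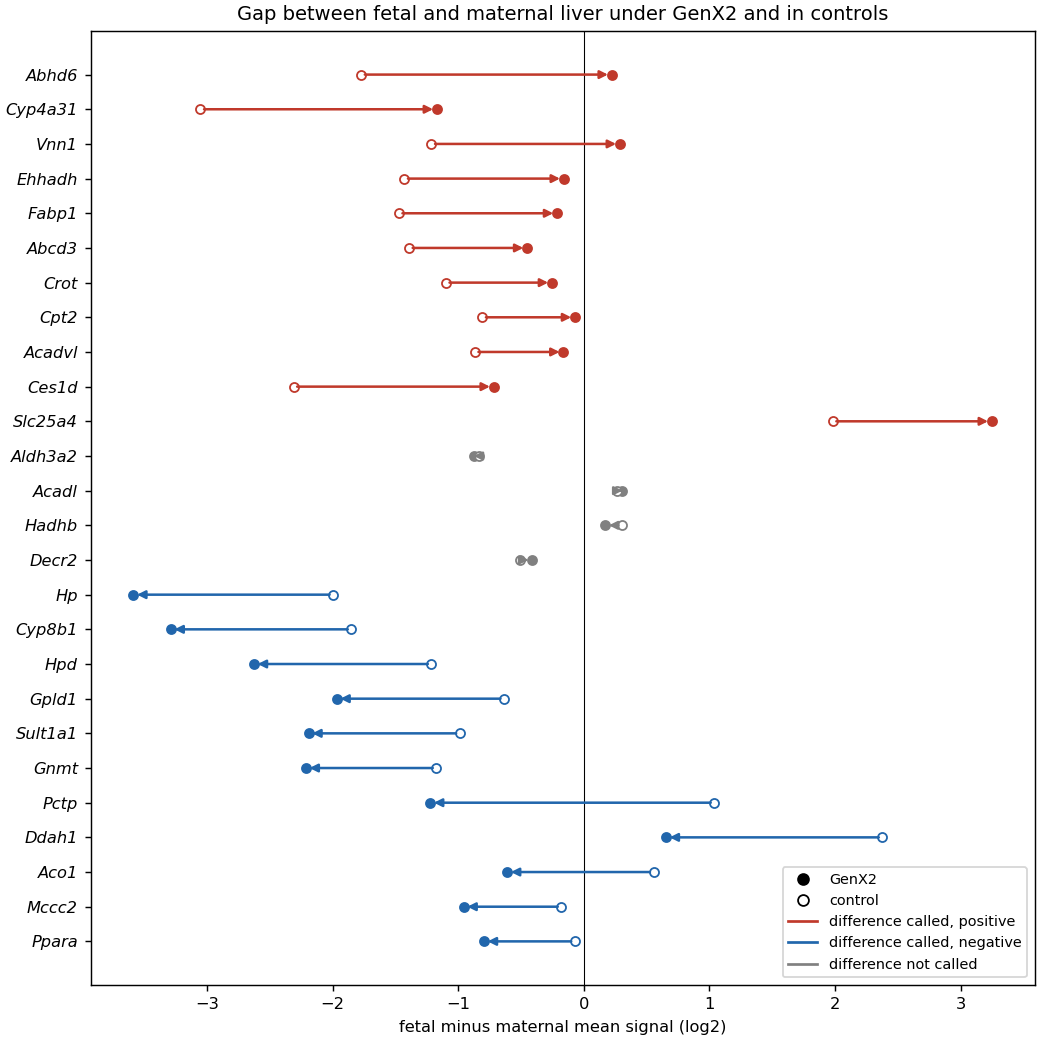
Fetal minus maternal mean log2 signal (horizontal axis) under GenX2 (filled points) and in controls (open points) for 26 named genes, the arrow running to GenX2. Fatty acid genes such as Ehhadh and Fabp1 ended near 0 (-0.16 and -0.21) where Hp and Cyp8b1 ended further below it (-3.59 and -3.29), and Acadl hardly moved.

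A larger fetal rise was not general among fatty acid genes. Of 203 genes above background in both livers and called the same way in both, 106 had a 95% interval of the difference inside ±0.5, 105 of them rising and 1 falling. Acadl, long-chain acyl-CoA dehydrogenase, had 11.22, 11.21, 11.28, 11.03 and 11.27 in fetal GenX2 and 10.17, 10.31, 10.27, 10.23 and 10.14 in fetal control. Maternal signals were 11.15, 10.95, 10.96, 10.6 and 10.82 under GenX2 and 10.2, 9.85, 9.76, 9.96 and 10.03 in control. The groups were separate in both tissues and the difference was 0.05 (95% interval -0.24 to 0.33). Hadhb, the thiolase subunit of the mitochondrial trifunctional protein, differed by -0.13 (-0.49 to 0.23) and Decr2, the peroxisomal dienoyl-CoA reductase, by 0.09 (-0.29 to 0.48). For Aldh3a2, the fatty aldehyde dehydrogenase, the interval was -0.48 to 0.40, and for Hacd3, of fatty acid elongation, -0.31 to 0.37. The gene that fell alike was Pla1a, a phosphatidylserine phospholipase, which fell by 0.46 in fetal and fell by 0.58 in maternal liver. Strongly induced genes could not be placed this finely. Cyp4a14, another ω-hydroxylase, rose by 5.27 in the fetus and 3.95 in the dam, with an interval of the difference from -0.17 to 2.82 (adjusted p = 0.653). Acot1, a cytosolic acyl-CoA thioesterase, gave 3.21 and 2.96, interval -0.46 to 0.97. Pdk4, which restrains pyruvate oxidation, leaned the other way, with rises of 2.51 in fetal and 3.89 in maternal liver that did not pass for the difference (adjusted p = 0.0627). Cd36, a fatty acid transporter, and Plin2, a lipid droplet coat protein, rose in both tissues, and their differences of -0.75 and 0.58 did not pass either (adjusted p = 0.225 and 0.116, limma).

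By list, peroxisomal fatty acid oxidation had 28 measured genes, of which 19 rose in fetal and 23 in maternal liver, and 5 had a positive and 2 a negative difference. The negative pair was Scp2, a sterol carrier and peroxisomal thiolase, and Nudt7, a peroxisomal CoA diphosphatase, both called in the dam alone and named after their values were seen. Its median effect was 0.72 in fetal and 0.74 in maternal liver, beside -0.03 over all genes in each tissue. Mitochondrial fatty acid oxidation had 18 of 21 risen in fetal and 20 of 21 in maternal liver, with medians of 1.01 and 0.82, and 4 positive differences. Of 32 genes of PPAR-responsive lipid handling, 17 rose in the fetus and 16 in the dam, and 7 differences were positive and 2 negative. For the lists of cholesterol synthesis (19 genes) and of fatty acid and triglyceride synthesis (22 genes) no difference passed, although 8 and 11 members rose in fetal and 11 and 12 in maternal liver. The lists were chosen with earlier results of these data known.

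**Figure D3:**
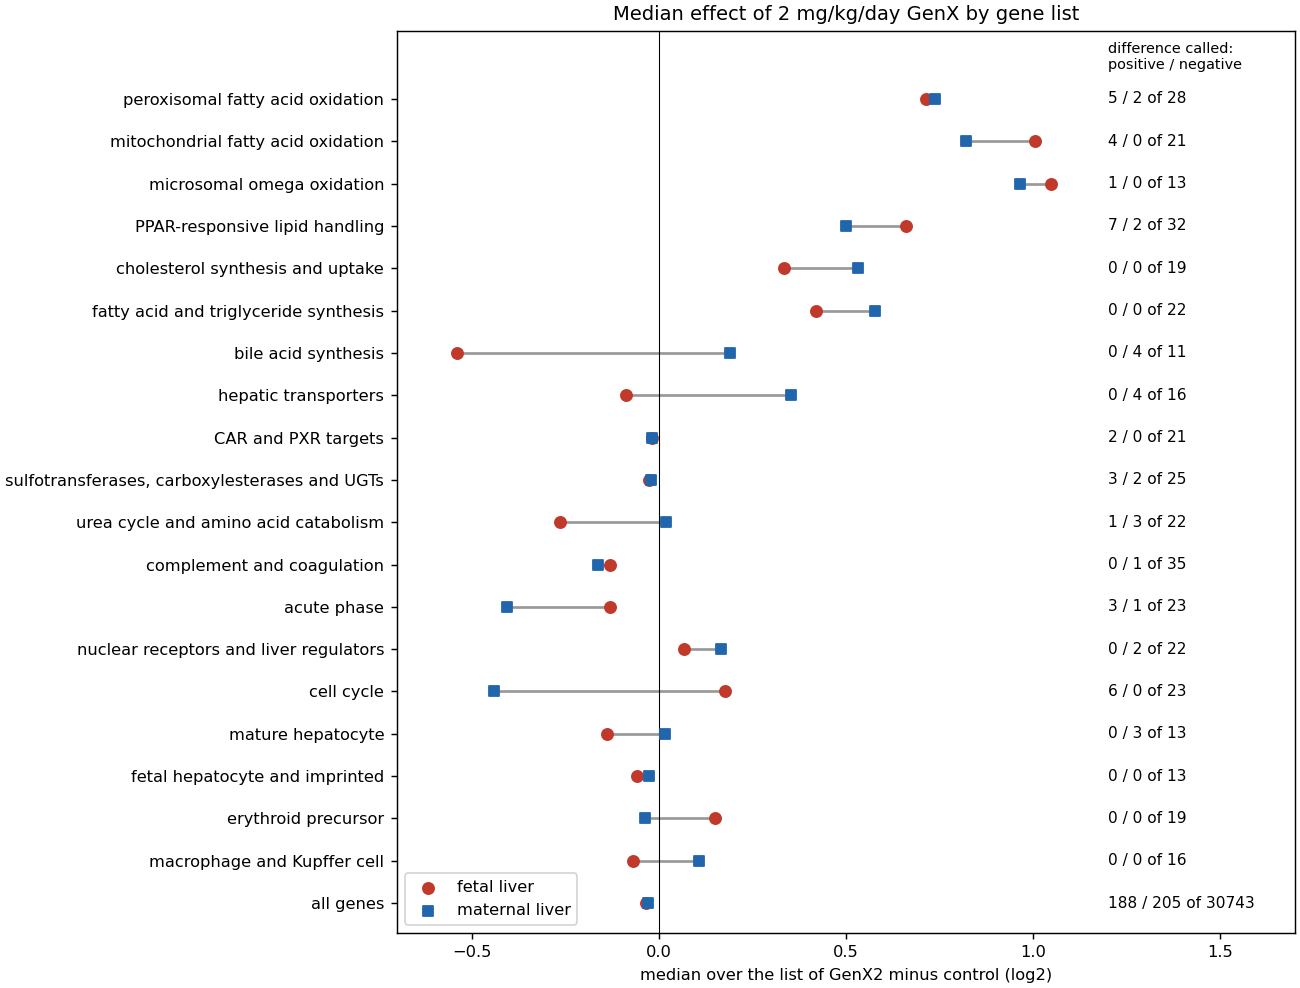
Median effect over each gene list (GenX2 minus control, log2) in fetal liver (red circles) and maternal liver (blue squares), with the number of members whose difference was called positive / negative of those measured at the right. Fatty acid oxidation lists lie between 0.72 and 1.05 in both livers, whereas bile acid synthesis (-0.54 fetal, 0.19 maternal) and cell cycle (0.18 fetal, -0.44 maternal) lie apart.

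Several rises were found in the fetus alone or nearly so. Ces1g, a carboxylesterase that hydrolyses triglycerides and xenobiotic esters, had the largest positive difference among genes above background in one liver only, 2.95 ± 0.37 (adjusted p = 1.16e-06). It read 8.51, 8.72, 8.18, 8.25 and 8.55 in fetal GenX2 and 5.69, 5.61, 5.91, 5.63 and 5.82 in fetal control, where all 5 control arrays were below background. In maternal liver, 10.88, 10.05, 10.35, 9.1 and 10.06 under GenX2 overlapped 10.31, 9.99, 10.75, 10.14 and 10.45 in control. The fetal rise was at least 1.46-fold by the background of the control arrays. Its relative Ces1d, above background in both livers, rose by 1.78 in the fetus and changed by 0.19 in the dam (adjusted p within maternal liver 0.451), a difference of 1.59 ± 0.23. Members of the Ces1 cluster are similar in sequence, and shared probes could blur them. Aldh1a7, a retinal dehydrogenase relative, rose at least 1.44-fold in the fetus to 8.42, from controls below background, while the dams stood at 11.80 and 11.89 with GenX2 and without. Aldh1a1, the close paralogue, was called higher in both livers, but its fetal signal was above background on 2 of 5 GenX2 arrays and on no control array, which gives no fetal fold. Its difference of 1.16 (adjusted p = 0.0125) did not pass without the arrays of male pattern (adjusted p = 0.0784). Acss3, a mitochondrial short-chain acyl-CoA synthetase, rose at least 1.16-fold in the fetus, where all 5 control arrays were below background, and 1.49-fold in the dam. Its difference in signal, 2.10 ± 0.23, was called, but that bound is below the maternal fold, so the larger fold is not settled. Of 25 sulfotransferases, carboxylesterases and UDP-glucuronosyltransferases, 5 rose and 4 fell in fetal liver, none rose and 2 fell in maternal liver, and 3 differences were positive and 2 negative. By level, 4 of the 25 were above background in both livers, 18 in maternal liver only and 3 in neither. Sult2a8, a bile acid sulfotransferase in mice, gave 1.54, a value that rests on fetal signals below background on all 10 arrays. The maternal groups overlapped, and the call was lost in 6 of the 20 fits that left out 1 array (adjusted p up to 0.12 over all alternatives).

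Cpt1b and Aqp3 were above background in fetal liver only. Cpt1b, the muscle form of the carnitine acyltransferase that commits fatty acids to mitochondria, read 10.11, 10.07, 9.91, 9.75 and 10.59 in fetal GenX2 and 7.36, 7.07, 7.34, 7.56 and 7.19 in fetal control, a rise of at least 4.57-fold. The maternal signal rose as well, but only 1 of the 5 GenX2 arrays exceeded background and none of the controls did (7.20 and 6.36 on average). The difference was 1.95 ± 0.29 (adjusted p = 4.69e-05). Aqp3, a channel for water and glycerol, rose by 1.76 in the fetus, at least 2.3-fold, and was below background on all 10 maternal arrays. Slc25a4, the muscle and heart form of the mitochondrial ADP/ATP carrier, read 10.93, 10.79, 10.85, 10.88 and 11 in fetal GenX2 and 9.31, 9.52, 9.7, 9.8 and 9.36 in fetal control. Maternal GenX2 arrays had 7.78, 7.41, 7.8, 7.55 and 7.66, which overlapped 7.45, 7.22, 7.75, 7.65 and 7.71 in maternal control, and 3 arrays of each maternal group were above background. The difference was 1.27 ± 0.22 (adjusted p = 0.000433). Slc25a30, another mitochondrial carrier, rose at least 1.69-fold in the fetus, with a difference of 1.21 that lost its call in 12 of the 20 fits that left out 1 array (adjusted p up to 0.116 over all alternatives). Bhmt, of methionine metabolism, rose by 0.66 in fetal liver with a difference of 0.84; its pseudogene copy Bhmt-ps1 gave a like signal, and the 2 may be shared. Across Ces1g, Ces1d, Aldh1a7, Acss3, Cpt1b, Aqp3 and Slc25a4 the differences ran from 1.33 to 2.92 without the arrays of male pattern, and from 1.24 to 2.92 without those of conflicting labels.

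The most negative differences among genes above background in at least 1 liver were falls in the fetus. Cyp2e1, an ethanol- and acetone-oxidising P450 of pericentral hepatocytes, read 6.24, 6.29, 6.0, 5.47 and 5.78 in fetal GenX2, all below background, and 8.95, 8.5, 8.89, 9.14 and 9.12 in fetal control, all above it. In the dams it was 12.66, 12.34, 12.1, 12.28 and 12.27 under GenX2, overlapping 12.15, 12.31, 12.21, 12.2 and 12.31 in control. The fetal level was at least 2.23-fold lower under GenX2, and the difference of effects was -3.06 ± 0.30 (adjusted p = 3.99e-09). Pon1, paraoxonase of high-density lipoprotein, read 6.27, 6.17, 6.41, 5.86 and 6.15 in fetal GenX2, again all below background, and 8.6, 9.5, 9.49, 8.49 and 8.97 in fetal control. Maternal Pon1 was 11.09, 10.9, 10.78, 10.73 and 10.69 under GenX2 and 10.56, 10.8, 10.79, 10.67 and 10.86 in control, and these groups overlapped. It fell at least 2.37-fold in the fetus, a difference of -2.94 ± 0.28 (adjusted p = 3.99e-09).

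Hp encodes haptoglobin, which binds free haemoglobin in plasma. Fetal GenX2 arrays read 8.9, 8.85, 9.22, 8.06 and 8.79, all under the fetal controls at 9.87, 9.65, 10.32, 10.8 and 10.38. Maternal values were 11.82, 12.42, 12.52, 12.53 and 12.47 under GenX2 and 12.21, 12.32, 12.16, 12.27 and 12.04 in control, with overlap, and the difference was -1.59 ± 0.31 (adjusted p = 0.00206). Hpd, which degrades tyrosine, fell by 1.15 in the fetus and differed by -1.41 ± 0.25 between tissues. Gpld1, a plasma phospholipase that cleaves lipid anchors, fell by 1.51, Sult1a1, a phenol sulfotransferase, fell by 1.34, and Gnmt, which disposes of methyl groups, fell by 1.06 in fetal liver. None of these 5 was called within maternal liver, where changes lay between -0.18 and 0.26. Gpld1 was below background on most fetal GenX2 arrays, so the size of its fall is not fully measured. Hal, which degrades histidine and was above background in maternal liver only, fell at least 1.16-fold in the fetus and differed by -1.18 ± 0.26. Mbl2, a mannose-binding lectin of plasma in the same class, fell in both, by 1.63 in fetal liver, where 2 of 5 control arrays and no GenX2 array were above background, and by 0.61 in maternal liver. Cps1, which opens the urea cycle, fell by 1.26 in the fetus, but the fetal GenX2 arrays spread with an SD of 1.11 and its difference (adjusted p = 0.0448) lost its call in 16 of the 20 fits that left out 1 array (adjusted p up to 0.273 over all alternatives). The lowest fetal GenX2 value of Cps1, 8.85, was on replicate 2, an array of male pattern. Without the arrays of male pattern its difference was -0.88 (adjusted p = 0.106, limma).

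Several genes of bile acid synthesis fell in the fetus too. Of 11 measured genes, 5 fell and 1 rose in fetal liver, none fell and 1 rose in maternal liver, and 4 differences were negative. By level, 4 of the 11 were above background in both livers and 7 in maternal liver only. Cyp8b1, which makes cholic acid, read 7.76, 7.01, 7.16, 6.67 and 8.02 in fetal GenX2 and 8.84, 8.78, 8.73, 8.36 and 8.53 in fetal control, with maternal values of 10.89, 10.7, 10.33, 10.41 and 10.73 under GenX2 and 10.56, 10.44, 10.57, 10.62 and 10.31 in control. The fetal groups were apart, with most fetal GenX2 arrays below background, and the maternal groups overlapped. Its difference was -1.44 ± 0.31 (adjusted p = 0.0072). Akr1d1, a reductase of bile acid intermediates, differed by -1.82 ± 0.27, Cyp27a1, the mitochondrial sterol hydroxylase, by -1.18 ± 0.22, and Slc27a5, which activates bile acids for conjugation, by -1.25 ± 0.21. Those 3 were above background in maternal liver only by the rule, and on all fetal GenX2 arrays they were below it. By the background, the fetal falls were at least 1.18-fold for Akr1d1 and at least 1.14-fold for Cyp27a1. Slc27a5 was below background on all fetal control arrays too, so its value is a shift of dim fetal signals. Cyp7a1, the rate-limiting enzyme of the classic route, fell in the fetus by 2.05 and changed by -1.38 in the dam without passing there (adjusted p = 0.168). All fetal GenX2 signals of Cyp7a1, at most 6.79, were below background, and the fetal controls, from 7.92 to 8.78, were above it. The size of that fetal fall is therefore not measured. The difference for Cyp7a1, -0.67 ± 0.63, did not pass (adjusted p = 0.891), and was -1.38 (adjusted p = 0.217) without maternal GenX2 replicate 1. That array read 5.70, below the 4 others of its group.

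The falls did not extend to all hepatocyte genes. Of 13 mature hepatocyte markers, 4 fell and 1 rose in fetal liver, 1 rose in maternal liver, and 3 differences were negative, the third being transthyretin (Ttr) at -0.32. The Ttr call was lost without the arrays of male pattern (adjusted p = 0.0697), after median centring, after repeated quantile normalization and with the replicate block, and after median centring the list held 1 negative difference. Alb differed by 0.03 (-0.09 to 0.15), and the list's median difference was 0.01, beside 0.00 over all genes. Alb read between 13.22 and 13.53 in the 4 groups, and whether signals this high can register a change was not tested. Among 22 genes of the urea cycle and amino acid catabolism, 7 fell and 2 rose in fetal liver and none was called in the dam. Markers of other cells in the fetal liver were set beside these falls. The mean signal over 19 erythroid precursor genes ranged from 8.92 to 9.57 in fetal GenX2 and from 8.88 to 9.25 in fetal control. Fetal GenX2 replicate 4 was the highest of them. Over the 13 mature hepatocyte markers the mean ranged from 9.61 to 9.92 in fetal GenX2 and from 9.87 to 10.10 in fetal control. That list includes Cyp2e1 and Cps1, so its mean counts their falls again and is no separate measure of hepatocyte share. With the erythroid level as a covariate, the difference was -2.84 for Cyp2e1 (adjusted p = 2.64e-09, limma) and -1.45 for Hp (adjusted p = 0.00199). Calls lost under this covariate included those of Cps1 (adjusted p = 0.114) and of Hao2 and Aqp8, described below (adjusted p = 0.0954 and 0.108). In bulk liver RNA, fewer hepatocytes and less of a transcript per hepatocyte cannot be told apart. Without the arrays of male pattern the differences of Cyp2e1, Pon1, Hp, Hpd, Gpld1, Sult1a1, Gnmt, Cyp8b1, Akr1d1, Cyp27a1 and Slc27a5 ran from -3.15 to -1.12, and without those of conflicting labels from -3.01 to -1.10.

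**Figure D4:**
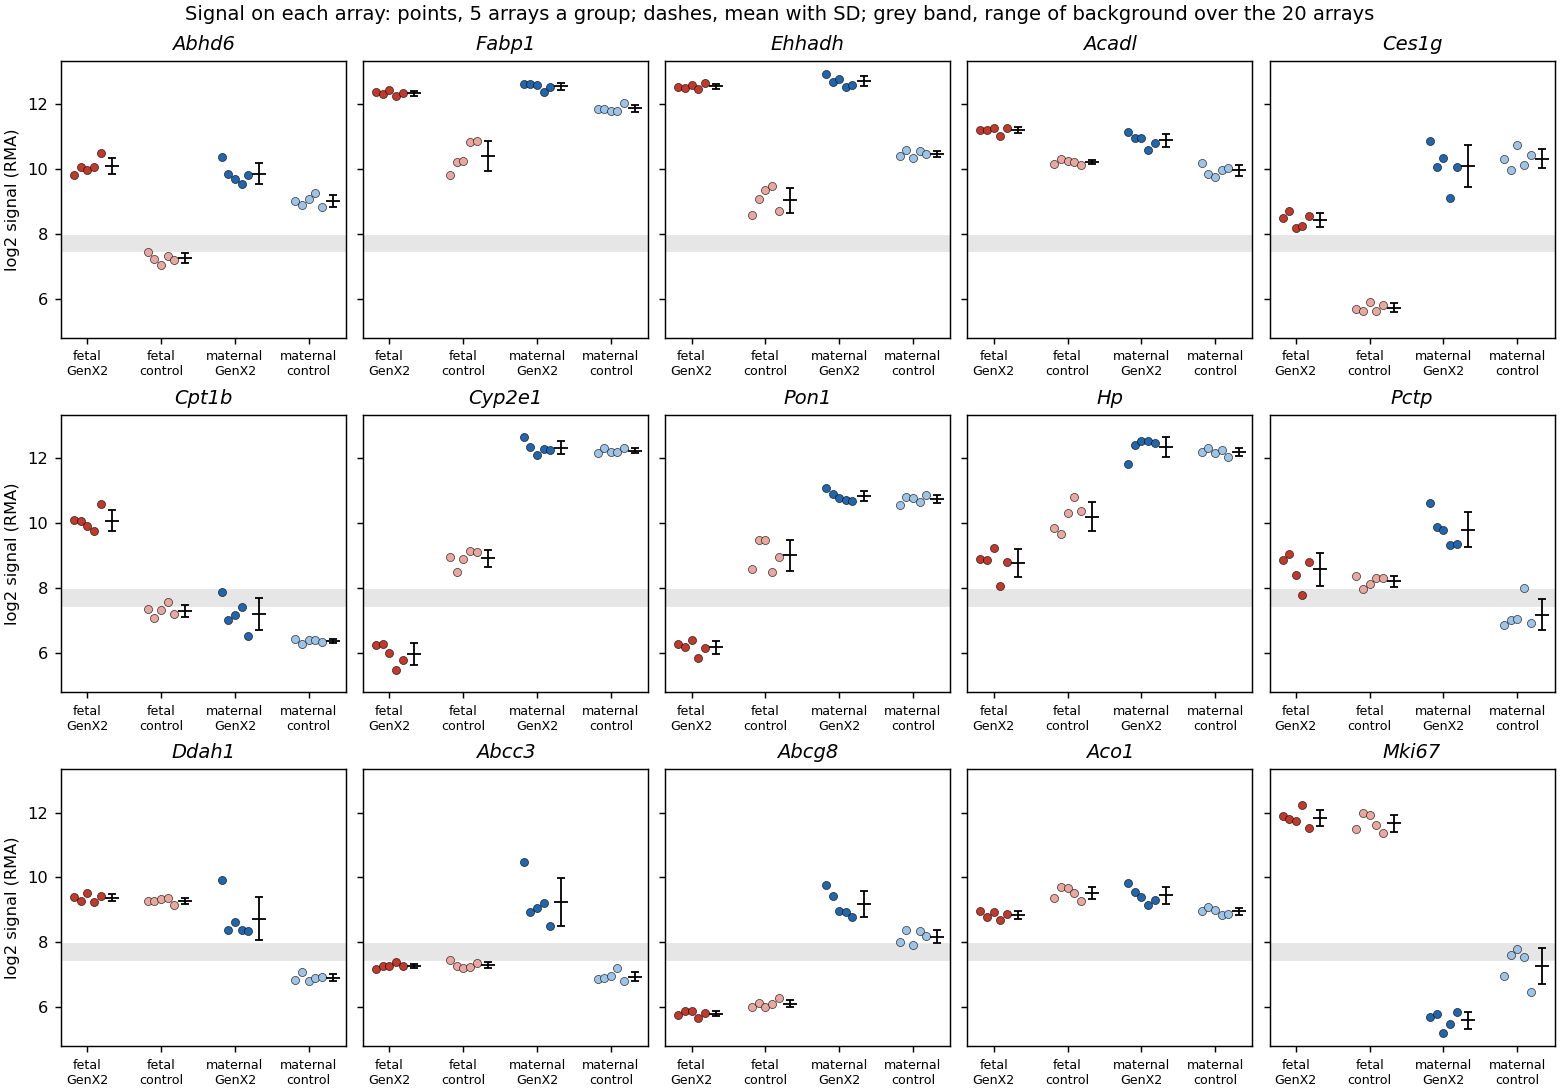
Log2 signal on every array for 15 genes, with the 4 groups along the horizontal axis (fetal GenX2, fetal control, maternal GenX2, maternal control), mean and SD beside the points (n = 5), and a grey band for the range of the background percentile (7.46 to 7.94). Fetal GenX2 points of Cyp2e1 and Pon1 lie under the band, and those of Abhd6, Cpt1b and Ces1g lie above it.

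Other genes rose in the dam and not in the fetus. Pctp, which moves phosphatidylcholine between membranes, had the most negative difference among genes above background in both livers, -2.26 ± 0.41 (adjusted p = 0.000716). The fetal GenX2 values, 8.86, 9.05, 8.39, 7.78 and 8.81, overlapped 8.37, 7.96, 8.12, 8.3 and 8.31 in fetal control. Maternal GenX2 arrays read 10.64, 9.89, 9.8, 9.31 and 9.36, all above the maternal controls at 6.87, 7.0, 7.05, 8.02 and 6.92. Maternal control replicate 4 was high for Pctp, and the other 4 controls were below background. Ddah1, which breaks down methylarginines, read 9.41, 9.26, 9.53, 9.25 and 9.44 in fetal GenX2 and 9.27, 9.27, 9.35, 9.38 and 9.14 in fetal control, with overlap. In the dam it read 9.9, 8.39, 8.63, 8.37 and 8.33 under GenX2, against 6.82, 7.08, 6.82, 6.88 and 6.92 in control, where all 5 arrays were below background. The maternal rise of Ddah1 was thus at least 2.16-fold, and its difference was -1.72 ± 0.25 (adjusted p = 1.71e-05), or -1.43 without maternal GenX2 replicate 1, the highest array.

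Transporters of the maternal hepatocyte belonged to this group. Abcc3, an exporter of conjugates to blood, was below background on all 10 fetal arrays, at 7.27 under GenX2 and 7.30 in control on average. In the dam it read 10.49, 8.93, 9.05, 9.21 and 8.51 under GenX2 and 6.88, 6.89, 6.95, 7.19 and 6.79 in control, a rise of at least 3.08-fold. Its difference was -2.33 ± 0.32 (adjusted p = 8.93e-06). Of 16 hepatic transporters, none rose and 2 fell in fetal liver, 7 rose and 1 fell in maternal liver, and 4 differences were negative. By level, 5 of the 16 were above background in both livers, 7 in maternal liver only and 4 in neither. Most members thus had fetal signals too dim to show a change of clear size. Over all genes, 3.9% rose and 2.83% fell in fetal liver, and 2.43% rose and 0.937% fell in maternal liver. Ly6d, a small membrane-anchored protein, rose at least 1.92-fold in the dam and was below background on every fetal array. Fabp3, the heart fatty acid binding protein, rose at least 2.16-fold in the dam, above background on 4 of 5 GenX2 arrays and on no control array. With the probes of the gene averaged the Fabp3 difference was -0.89, and with only the 4 groups in the fit its adjusted p was 0.0689. Its pseudogene Fabp3-ps1 gave a like value (difference -2.23, beside -1.79 for Fabp3), and the signals of these near-identical copies cannot be assigned to either. The same holds for Fabp5, an epidermal form, and Fabp5l2, with differences of -1.19 and -1.19; both were above background in fetal liver, where neither was called. In the dam both signals rose, but they were below background on all control arrays and above it on 1 (Fabp5) and 2 (Fabp5l2) of the 5 GenX2 arrays, which gives no maternal fold.

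Of the receptors themselves, Ppara read 8.51, 8.37, 8.18, 8.0 and 8.6 in fetal GenX2 and 8.24, 8.43, 8.73, 8.4 and 8.12 in fetal control, with overlap. In maternal liver it read 9.22, 9.32, 8.97, 9.09 and 9.03 under GenX2, all above 8.31, 8.59, 8.29, 8.53 and 8.56 in control. The difference, -0.72 ± 0.19 (adjusted p = 0.0379), lost its call in 10 of the 20 fits that left out 1 array (adjusted p up to 0.148 over all alternatives), and without the 2 arrays of male pattern the adjusted p was 0.113. Nr1i3, the constitutive androstane receptor CAR, rose by 0.42 in the dam and was below background on every fetal array; its difference of -0.62 lost its call in 13 of the 20 fits that left out 1 array (adjusted p up to 0.106 over all alternatives). Cyp2b10, a standard CAR target, changed by -0.0023 in the fetus and 0.40 in the dam, neither of which passed (adjusted p = 0.993 and 0.651, limma). Of 22 nuclear receptors and liver regulators, 1 rose in fetal and 5 in maternal liver, and the 2 negative differences were these receptors'. Without the arrays of male pattern the differences of Pctp, Ddah1, Abcc3, Ly6d, Fabp3 and Fabp5 ran from -2.40 to -1.11, and without those of conflicting labels from -2.33 to -1.21.

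Opposite changes, each called within its own tissue, were found for 7 genes, all of them also called for the difference. In 6 the fetus fell and the dam rose. Aco1, cytosolic aconitase and an iron-responsive RNA-binding protein, was above background throughout. It read 8.95, 8.78, 8.92, 8.67 and 8.87 in fetal GenX2, all under 9.37, 9.69, 9.67, 9.52 and 9.26 in fetal control. The maternal order was the reverse, with 9.83, 9.55, 9.38, 9.16 and 9.31 under GenX2, all over 8.96, 9.1, 8.99, 8.83 and 8.88 in control. The fetal change was -0.67 ± 0.08 and the maternal 0.50 ± 0.10 (adjusted p of the difference 1.89e-07). Mccc2, a subunit of the leucine-degrading methylcrotonyl-CoA carboxylase, changed by -0.25 ± 0.08 in fetal and 0.52 ± 0.11 in maternal liver. Anxa2, a membrane-binding annexin, read 8.18, 8.22, 8.21, 7.74 and 8.49 in fetal GenX2 and 9.05, 8.73, 8.9, 8.83 and 8.88 in fetal control. Its maternal signal rose by 0.56 with all arrays below background, which leaves no measured maternal fold.

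Abcg5 and Abcg8 form the sterol exporter of the canalicular membrane. Fetal Abcg8 values of 5.77, 5.87, 5.88, 5.67 and 5.81 under GenX2 and 6.0, 6.12, 6.0, 6.1 and 6.27 in control were all below background, so the called fetal fall of 0.30 is a shift of dim signals. The maternal values were 9.78, 9.41, 8.96, 8.94 and 8.79 under GenX2 and 8.0, 8.38, 7.92, 8.34 and 8.2 in control, with no overlap, a 2.01-fold rise. Abcg5 differed by -1.22, also with fetal signals below background and with maternal groups apart, the controls above background on 3 of 5 arrays. Acsm5, a medium-chain acyl-CoA synthetase, differed by -0.81. Its fetal signals were below background, its maternal groups overlapped, and its maternal controls were above background on 2 of 5 arrays. In the reverse direction stood Slc7a5, a carrier of large neutral amino acids, which rose by 0.36 in the fetus, while in the dam its signal, below background on all arrays, fell by 0.29. Aqp11 and Hao2 fell in the fetus without a maternal call, and Aqp8 did likewise. Their differences were -0.96, -1.26 and -1.40. Those of Hao2 and Aqp8 are not fetal falls alone, because both signals averaged higher in the dam under GenX2. Maternal Hao2 ran from 8.51 to 9.73 under GenX2 and from 7.72 to 8.77 in control. Maternal Aqp8 ran from 8.51 to 10.25 under GenX2 and from 8.66 to 8.86 in control. The Hao2 difference lost its call in 4 of the 20 fits that left out 1 array (adjusted p up to 0.0954 over all alternatives). The Aqp8 difference lost its call in 9 of the 20 fits that left out 1 array (adjusted p up to 0.11 over all alternatives).

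Falls called in the dam and not in the fetus included proliferation genes. Of 23 cell cycle genes, none was called in fetal liver, where 18 were above background, and 14 fell in maternal liver, where 1 of the 23 was above background by the rule. On the maternal arrays all 23 were below background on every GenX2 array and 20 of 23 on every control array, so most of these falls are shifts of dim signals. All 23 differences were above 0 and 6 were called. Mki67, the proliferation antigen Ki-67, read 11.9, 11.8, 11.73, 12.22 and 11.52 in fetal GenX2, overlapping 11.49, 11.97, 11.92, 11.6 and 11.36 in fetal control. In the dam it read 5.68, 5.78, 5.18, 5.48 and 5.83 under GenX2, all below background, and 6.94, 7.6, 7.79, 7.55 and 6.45 in control, where 2 of 5 arrays were above it. The difference was 1.84 ± 0.41 (adjusted p = 0.00998). Plk1, a mitotic kinase, was at least 1.17-fold lower in the dam under GenX2 and differed by 1.37 ± 0.25 (adjusted p = 0.000637). Ube2c, of the anaphase-promoting complex pathway, was above background on none of the maternal GenX2 arrays and on all 5 maternal control arrays, at least 1.41-fold lower. Cyclin A2 (Ccna2) and Hmmr, a spindle protein, fell in the dam by 1.03 and 1.21, with every maternal array below background, and the call for the difference of Hmmr was lost in 6 of the 20 fits that left out 1 array (adjusted p up to 0.0775 over all alternatives). The mean over the 23 genes ranged from 5.94 to 6.09 in maternal GenX2 and from 6.23 to 6.74 in maternal control. Which cells of the dam's liver carried these transcripts was not tested.

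Some acute phase genes were lower in the dam as well. Of 23 measured, 5 fell in fetal and 8 in maternal liver, and 3 differences were positive and 1 negative. Orm2, an acid glycoprotein of plasma, averaged 7.73 ± 0.36 in maternal GenX2 and 9.28 ± 0.61 in maternal control (SD, n = 5 each) and was below background in all fetuses. Its difference of 1.46 (adjusted p = 0.0187) lost its call without maternal control replicate 4 or without the arrays of male pattern (adjusted p up to 0.0508), and the Orm genes are near-identical copies whose signals may be shared. Slc1a2, a glutamate transporter of the pericentral zone, averaged 7.01 ± 0.66 in maternal GenX2 and 8.59 ± 0.13 in maternal control, where it was above background on 1 and 5 arrays, and differed by 1.52 ± 0.34 (adjusted p = 0.0103). Cyp17a1, a steroid hydroxylase and lyase, was called with a difference of 2.90 ± 0.68. Its fetal rise of 1.59 passed within its tissue, while the maternal change of -1.31 did not (adjusted p = 0.283), in a maternal GenX2 group with an SD of 2.19. Fetal signals were above background on 2 of 5 GenX2 arrays and on no control array. Maternal GenX2 replicate 1 read 5.42, below the others of its group, and without it the difference was 1.98 (adjusted p = 0.00388). With only the 4 groups in the fit the call was lost (adjusted p = 0.191).

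Whether the contrast between tissues changed with dose was tested on the means of the exposed groups. The value was GenX at 10 mg/kg/day minus 2 mg/kg/day in fetal liver (4 and 5 arrays) less the same in maternal liver (5 and 5). Control means do not enter this value, but the spread came from all 50 arrays in the fit, controls included. In that fit 16 genes were called (0.052%), 4 positive and 12 negative. An unadjusted p under 0.05 (limma) was reached by 1184 genes, a share of the 30743 tested that is itself under 0.05. With only these 4 groups in the fit, 1 gene was called, 9 without fetal GenX2 replicate 3 or replicate 5, 10 without maternal GenX2 replicate 2 or replicate 5, and 24 without maternal GenX10 replicate 4. Slc25a4 was among the 16. It averaged 10.999 at the high and 10.89 at the low dose in fetal liver, and 9.22 and 7.64 in the same order in maternal liver, a value of -1.46 ± 0.23 (adjusted p = 0.000754). Fabp3 gave -2.21 ± 0.37, with a maternal level of 10.83 at the high and 8.72 at the low dose and fetal signals below background at both. Cd24a, a surface glycoprotein of progenitor cells, was at 12.52 at the high and 12.51 at the low dose in the fetus, and at 8.46 at the high and 6.62 at the low dose in the dam. Mup3, a major urinary protein of adult liver, had the most positive value, 2.07 ± 0.28, with maternal levels of 7.52 at the high and 9.59 at the low dose; Mup genes are near-identical copies. Cd24a and Mup3 were named because they had the smallest adjusted p after the values were seen.

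The effect of the high dose uses the same control arrays, so its values are set beside those of the low dose without a comparison. The fetal minus maternal difference at 10 mg/kg/day was 1.62 for Abhd6 (1.99 at 2 mg/kg/day), 1.14 for Fabp1 (1.26) and 1.08 for Ehhadh (1.27). For Cyp2e1 it was -3.09 (-3.06), for Pon1 -2.80 (-2.94) and for Hp -1.57 (-1.59). The values for 4 more genes were -0.20 for Slc25a4 (1.27 at 2 mg/kg/day), 0.85 for Cpt1b (1.95), -0.54 for Cps1 (-1.33) and -3.99 for Fabp3 (-1.79). Pctp gave -2.61 (-2.26), Abcc3 -2.91 (-2.33) and Aco1 -1.18 (-1.17).

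Lists in which no difference passed included the fetal hepatocyte and imprinted genes (13 measured), oxidative phosphorylation (27), the unfolded protein and integrated stress response (17), the interferon response (14), the circadian clock (16), iron handling (16) and haem synthesis (7). In oxidative phosphorylation 11 genes rose in fetal and 8 in maternal liver. Markers of erythroid precursors (19), granulocytes (17), macrophages (16), sinusoidal endothelium (12), platelets (9), T and NK cells (9), B cells (8), cholangiocytes (5) and exocrine pancreas (7) also held no called difference. Among 13 stellate cell and fibroblast markers 1 was called, the muscle filament desmin (Des, 1.02), which was above background on 1 of the 20 arrays. CAR and PXR targets held 2 called differences of 21, the retinal dehydrogenases named above, and the well-known targets Cyp2b10 and Cyp3a11 were not among them (-0.40 and -0.50, adjusted p = 0.917 and 0.733, limma).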

How the data were processed

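RNA of fetal liver and of the dams' left lateral lobe was hybridised to Affymetrix whole-transcript arrays. The deposited values are log2 signals that the authors made with RMA, with mm10 as the build, per the submitters' processing notes; versions are not given in the sources used here. From these values, probes with several genes (1534) were left out and the brightest probe kept per gene (30743 genes, 364 with more than 1 probe). Symbols follow the platform annotation, updated by RefSeq gene ID for 874. Groups follow the sample titles. Differences were fitted with limma 3.58.1 (R 4.3.3), with 50 arrays in 10 groups for comparisons between tissues and 25 arrays for those within one. Errors of differences are standard errors from the fit. The fit was tested on simulated data. "At least" folds set the dim side at the higher of each array's 95th percentile of negative controls and its own signal. Per the labels' protocols fetal livers were drawn at random within litters; nothing states the litter of each array.

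Genes named are, by rule, the largest called differences in each class of level (10 each way above background in both livers, 5 each way above it in one), genes called in opposite directions, genes with an equal effect, up to 3 members of each of 42 lists, and 28 chosen genes, 25 of them measured; predicted genes and small RNAs were left out of the first 3 groups. Members and lists were chosen with earlier results of these data known. Alternatives covered variance trend, a filter on dim genes, normalization, centring, array weights, the arrays fitted, probe averaging, a fold minimum, the replicate block, label conflicts, arrays of male pattern, an erythroid covariate and leaving out each array. Promoter windows came from RefSeq tables. Figures were drawn with matplotlib 3.10.9.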

Additional observations from a re-analysis of the deposited data

Results flagged for a closer look

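Single arrays far from the other 4 of their group were looked for in 49 genes and 4 groups, 196 sets in all, and 12 were found. The rule flags about 5% of sets by chance. Several of the 12 lay on the same array, and genes on the same array are not independent. Whether chance gave them was not tested. Among the maternal GenX2 arrays, replicate 1 stood apart for Cyp2b10 (10.59, the others 8.52 to 9.09), Ddah1 (9.90, the others 8.33 to 8.63), Hp (11.82, the others 12.42 to 12.53) and Tmem64 (9.29, the others 10.87 to 11.30). Fetal GenX2 replicate 4 was low for Hao2 (7.19, the others 7.81 to 8.07), Mccc2 (7.54, the others 7.86 to 7.99) and Sult1a1 (7.94, the others 8.51 to 8.68). Fetal GenX2 replicate 5, the array of conflicting labels, was high for Acot1 (11.21, the others 10.71 to 10.83). Fetal control replicate 3, 1 of the arrays of male pattern, was high for Cyp7a1 (8.78, the others 7.92 to 8.05). Among maternal controls, replicate 4 was high for Pctp (8.02, the others 6.87 to 7.05), replicate 5 for Fabp1 (12.04, the others 11.80 to 11.87) and replicate 3 for Sult1a1 (10.89, the others 10.75 to 10.79).

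The fetal and maternal effects ran in opposite directions, each passing within its tissue and for the difference, for Abcg5 (difference -1.22), Abcg8 (-1.31), Aco1 (-1.17), Acsm5 (-0.81), Anxa2 (-1.27), Mccc2 (-0.78) and Slc7a5 (0.66). Only Aco1 and Mccc2 were above background in both livers. The others had signals below background in fetal or in maternal liver, so their opposite change there is a shift of dim signals.

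Eif2s3y, outside the comparisons made, read 6.49 on fetal control replicate 3 and 6.10 on fetal GenX2 replicate 2, above the other fetal arrays of the series at 3.63 to 3.80.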

How the results depend on the processing

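For the difference of effects, 393 genes were called; 254 also changed by 1.5-fold, 260 were called with only the 4 groups in the fit, and 290 to 400 with 1 array left out. In fetal liver (2070 called) the counts were 506 with the 1.5-fold minimum, 1159 with only the groups compared, 1260 when the source names were followed, and 1310 to 2016 with 1 array left out. In maternal liver (1036 called) they were 312 with the 1.5-fold minimum, 2621 with array weights, 613 with the erythroid covariate, 597 with only the groups compared, and 702 to 2433 with 1 array left out. For the dose contrast (16 called) they were 29 with array weights, 9 without the arrays of conflicting labels, 9 without those of male pattern, 1 with only the groups compared, and 9 to 24 with 1 array left out. Of 97 genes called and above background in both livers, the 99th percentile left 12 and a rule of 3 in 5 arrays gave 120. The protocol speaks of matched maternal and fetal samples, but no label says that a replicate number marks a litter, and same-numbered dams and fetuses deviated with correlations from -0.51 to 0.42 over 4601 genes. With the replicate block, 291 genes were called for the difference, 2053 in fetal liver, 990 in maternal liver and 10 for the dose contrast. The causes of these shifts were not tested. Of 73 named genes called for the difference, 49 passed under all 33 alternatives, 24 missed under at least 1 and none reversed. Cps1 missed in 24, Acot3 and Hsd3b5 in 19. Precision is limited by 5 arrays a group: the median standard error of a difference was 0.12, and 702 genes that missed had an interval reaching 1.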
